A study of Mus musculus with 9 samples.

Results

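Aortic arch RNA from mice without apolipoprotein E, 6 libraries in all, was set against 3 libraries from control mice, and the genes described are those in which all 6 values lay on the same side of all 3. Of the 21989 genes in the deposited table, 12895 reached at least 1 FPKM (fragments per kilobase of gene, scaled to the total fragments of the library) in at least 3 of the 9 libraries, and 210 of these 12895 genes had no overlap between the groups, 1.63% of them. In 130 genes (1.01%) the ApoE-/- libraries were the higher ones, and in 80 genes (0.62%) the lower ones. These genes were chosen by the values of this comparison, so their levels are a description and carry no test of their own.

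The control group was C57BL/6J on standard diet. The model group was ApoE-/- on high-fat diet for 15 weeks, and the high dose group had the same genotype and diet plus 5.12 g/kg/day of ZCL, the series' name for its Ziziphora clinopodioides Lam. preparation, given by gavage for 15 weeks. Each group had 3 libraries. Genotype and diet differ together between control and the 6 pooled libraries and cannot be told apart. The labels do not tie a library to its own mouse, so the spread behind each p-value is that between these libraries and could be technical. The age, sex and number of mice behind a library are not given in the labels.

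Apolipoprotein E is the ligand by which remnant lipoproteins are taken up from blood by the liver. Mice that lack it build up remnants in plasma and form plaques, early ones in the arch, where macrophages take up lipoprotein, store cholesterol ester as droplets and become foam cells. Cholesterol leaves such cells through ATP-binding cassette transporters whose genes are switched on by liver X receptors.

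Relative depth, read from the steps between low FPKM values, lay between 56.3% and 100% of the deepest library. Smooth muscle and endothelial genes were present in all 9 libraries. The smooth muscle actin gene Acta2 stood between 177 and 1857 FPKM and the endothelial adhesion gene Pecam1 between 118 and 198. High dose 1 had the lowest Acta2 and the lowest mean of 15 contractile smooth muscle genes, 4.50 on the log2(FPKM + 1) scale. In the other libraries that mean lay between 5.97 and 7.18. The part of this difference in the gene counts below was not tested. Other tissues came with the vessel wall unevenly. The heart muscle myosin gene Myh6 was high in control 1 (2729 FPKM), control 2 (807), high dose 2 (634) and high dose 3 (1554), against 1.85 to 6.34 in the remaining 5 libraries. The airway gene Scgb1a1 reached 6425 FPKM in control 2 and 20438 in high dose 2, the noradrenaline synthesis gene Th 600 in high dose 1, and the brown fat gene Ucp1 7979 in control 3. Heart muscle was thus present in some and absent in other libraries on both sides. Among the 210 were 0 of 16 cardiac muscle genes, 0 of 15 nerve and neuroendocrine genes, 0 of 13 skeletal muscle genes and 0 of 9 brown adipocyte genes. Over all tested genes the share was 1.63%, so a count of 0 in lists this short says little about these tissues.

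Limma called 0 of 12895 genes (0.0%) at an adjusted p under 0.05 for the 6 ApoE-/- libraries against control, with 509 genes at an unadjusted p under 0.05, of which 330 were higher and 179 lower. The smallest adjusted p was 0.158, for Apoe. For high dose against model, a contrast that uses no control library, limma also called 0 genes (0.0%), with 1729 at an unadjusted p under 0.05 and a smallest adjusted p of 0.0883. The number of genes without overlap depends on each library, because fewer libraries are easier to separate: it was 372 without control 1 (167 higher, 205 lower), 1223 without control 2 (982 higher, 241 lower), 958 without control 3 (301 higher, 657 lower), 476 without high dose 1 and 364 without high dose 2, and between 250 and 294 without any other one. The balance of higher over lower genes thus turned without control 1 or control 3. All 210 were contained in each of these counts, as the rule makes them. Scaling mattered as well: 260 genes had no overlap after median-ratio rescaling, 126 of the 210 among them, and after quantile normalization 108 of the 210 had none.

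Most of the 210 genes were separated by a narrow margin. In 107 of them the nearest ApoE-/- and control values lay less than 0.1 apart on the log2(FPKM + 1) scale, in 10 they lay more than 0.5 apart, and in 4 more than 1 apart. These 4 were Apoe, Gpnmb, Mmp12 and Lgals4. Just inside the rule stood Nr6a1, with 1.25 FPKM in both control 1 and model 1, and Apobec1, with 9.85 in control 2 and 9.86 in high dose 1. Just outside stood the sorbitol dehydrogenase gene Sord, with 38.20 in control 3 and 38.21 in model 3, and Pacsin2, with 33.98 and 33.99 in control 3 and model 1. The median log2 difference was 0.90 among the 130 higher genes and -0.48 among the 80 lower ones, against -0.02 over all genes tested. In 53 of the higher genes the difference exceeded 1, and in 10 of the lower genes it was below -1.

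**Figure D1:**
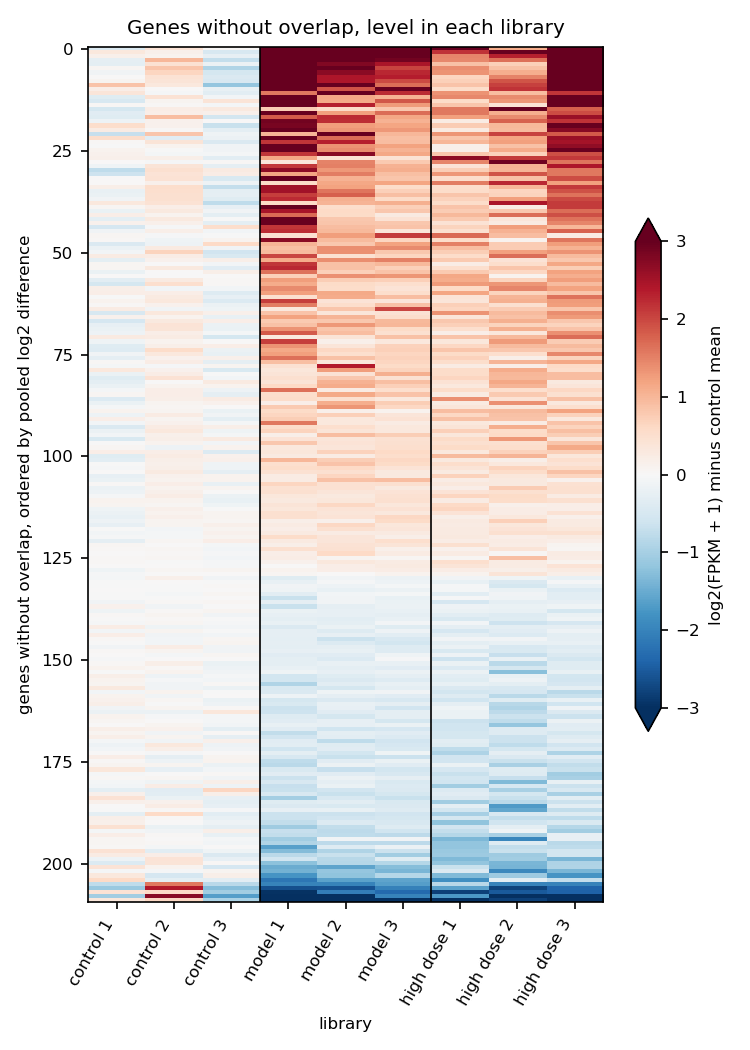
Level of the 210 genes without overlap (rows, ordered by pooled log2 difference) in the 9 libraries (columns), as log2(FPKM + 1) minus the control mean, with colours saturating at 3 and -3. The strongest red lies in model 1 and high dose 3, and the blue part is paler than the red part, as the medians of 0.90 and -0.48 state.

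The deleted gene itself, Apoe, lies on chromosome 7 (19696244 to 19701310, GRCm38.p6, RefSeq) and checks the group names. Control 1 to 3 held 829, 1006 and 339.9 FPKM of it. Model 1 to 3 held 18.9, 33.4 and 24.5 FPKM, and high dose 1 to 3 held 30.3, 93.7 and 25.4. The lowest control lay above the highest ApoE-/- library, high dose 2, which stood apart from the other 5. The log2 difference was -4.30 ± 0.486 (SE), limma adjusted p = 0.158. With array weights Apoe passed, at adjusted p = 0.0179, and over all alternatives its adjusted p ran from 0.0179 to 0.812. Where in the gene the remaining fragments lie is not shown by the table.

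**Figure D2:**
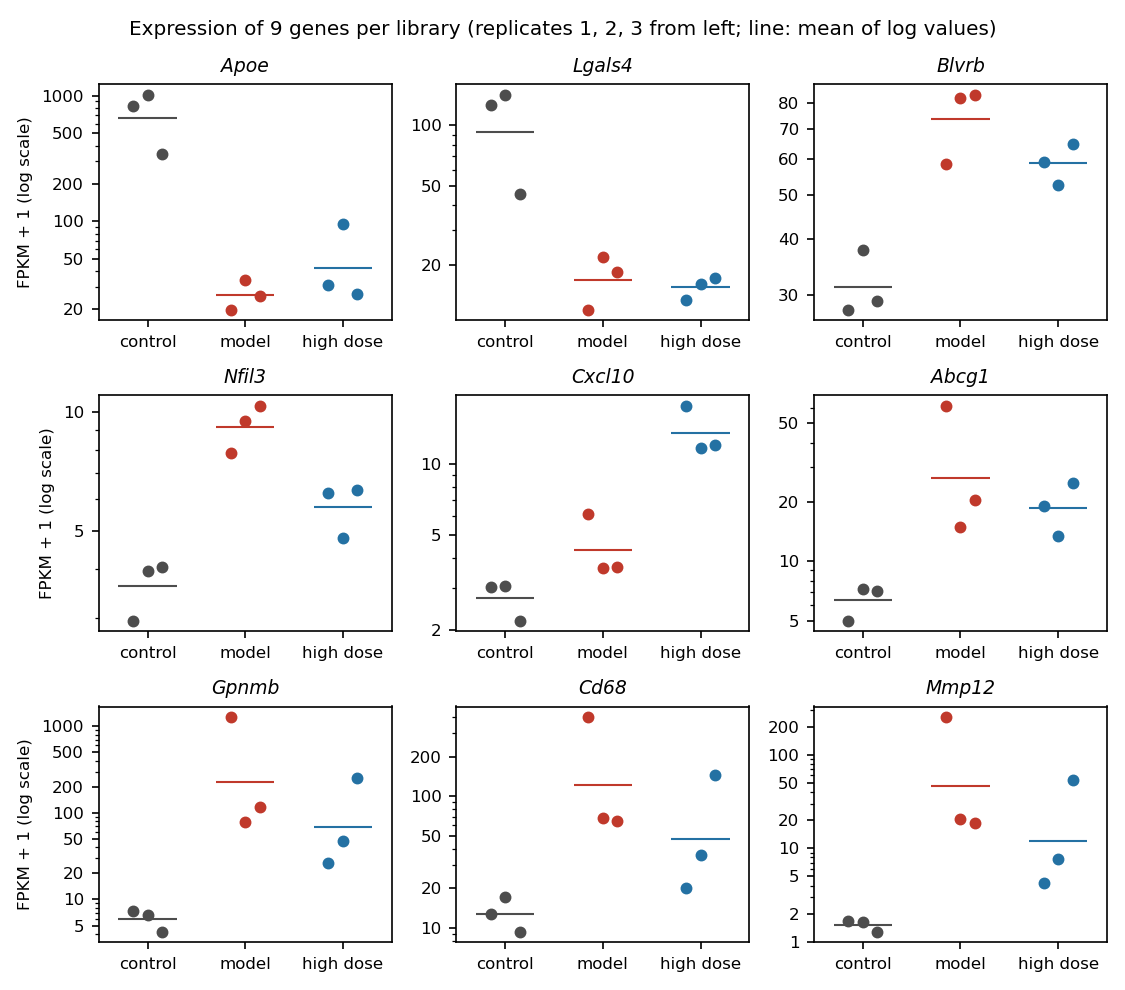
FPKM + 1 on a log axis for 9 genes, 1 point per library, with a line at the mean of the log values of each group. All 6 ApoE-/- points lie below the control points for Apoe and Lgals4 and above them for the other 7 genes, and model 1 is the highest point for Gpnmb, Cd68, Mmp12 and Abcg1.

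Genes close to Apoe on chromosome 7 were among the 210 more often than genes elsewhere. Of 93 tested genes that start within 5 Mb of Apoe, 10 had no overlap (10.8%, Apoe included), against 2.68% of the 112 genes at 5 to 10 Mb, 3.36% of the 149 at 10 to 20 Mb, 2.00% of the 150 at 20 to 50 Mb and 2.32% of the 518 farther away. On all other chromosomes together it was 177 of 11851 genes, 1.49%, and chromosome 7 as a whole, at 33 of 1022 or 3.23%, had the highest share of any chromosome, followed by chromosome 14 at 2.62%. This is a count by position on the deposited FPKM, with no test, and it was not repeated after rescaling.

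Among these 10, the 6 genes Ccdc61, Sympk, Qpctl, Trappc6a, Gemin7 and Apoe start between 18890883 and 19696244. Trappc6a, a subunit of the TRAPP vesicle tethering complex, stood at 13.9, 17.5 and 21.2 FPKM in control and at 22.9, 36.8, 33.1, 23.9, 40.1 and 21.5 in model 1 to 3 and high dose 1 to 3. Sympk, the scaffold of the messenger RNA 3′ end processing complex, went the other way, with 16.8 to 19.4 FPKM in control and 11.6 to 16.0 in the 6 ApoE-/- libraries. Gemin7, part of the complex that assembles spliceosomal particles, stood at 42.4 to 47.7 and 32.1 to 42.1, and Qpctl at 4.48 to 5.06 and 2.76 to 4.44. For Trappc6a, Gemin7 and Qpctl the nearest values of the groups almost touched. The zinc finger gene Zfp111 stood lower as well, at 1.02 to 1.72 and 0.195 to 0.973, with each high dose library below each model library. The RNA helicase gene Dhx34, at 3.37 to 4.42 in control and 5.28 to 6.63 in ApoE-/-, and Sae1, of the SUMO-activating enzyme, at 15.5 to 20.6 and 21.1 to 28.1, were higher. Tescl is listed at 0 in all 3 control libraries and stood at 0.641, 1.59, 1.50, 1.25, 0.0779 and 1.14 FPKM in model 1 to 3 and high dose 1 to 3. For Ccdc61, Sympk, Sae1 and Zfp111, too, the nearest values of the groups lay less than 0.1 apart on the log2(FPKM + 1) scale.

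**Figure D3:**
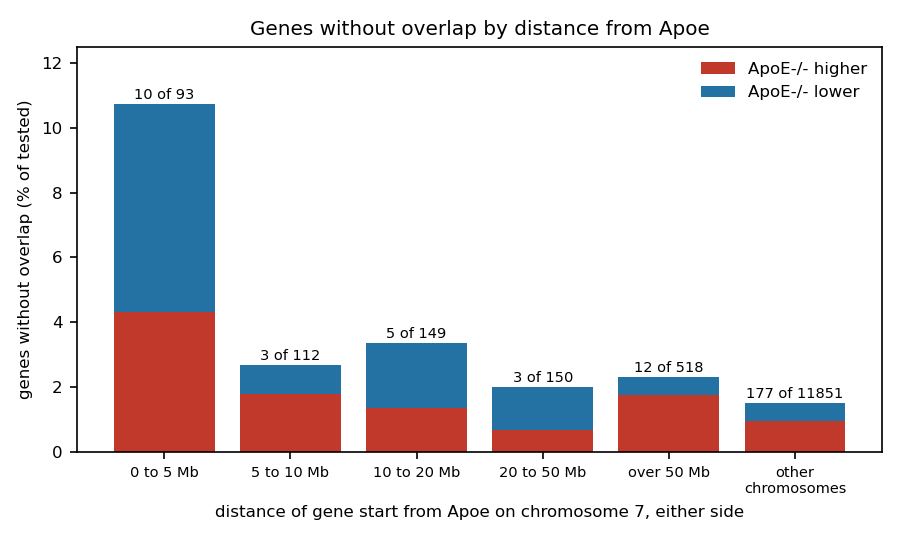
Share of tested genes without overlap (vertical axis, percent) by the distance of the gene's start from Apoe on chromosome 7, with all other chromosomes in the last bar; the bars stack genes higher and lower in ApoE-/-. The bar within 5 Mb, 10 of 93 genes, is the tallest, and the others lie between 1.49% and 3.36%.

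Lgals4 and Blvrb lie farther out on chromosome 7, between 5 and 10 Mb from Apoe. Lgals4, a galectin of digestive epithelium, stood at 125, 140 and 44.2 FPKM in control, at 11.0, 21.0 and 17.5 in model and at 12.4, 15.2 and 16.2 in high dose. The ApoE-/- libraries kept within a narrow band, and the lowest control was more than 2 times the highest of them. Its log2 difference was -2.52 ± 0.374 (SE), limma adjusted p = 0.649, and it passed without control 3, at -3.04 and adjusted p = 0.0464, within a range of 0.0464 to 1.00. Some mouse strains carry a close relative of this gene, and how fragments of such copies were assigned is not given in the sources used here. Blvrb, the biliverdin reductase that follows haem oxygenase in haem breakdown and also reduces flavins, stood at 26.9, 36.7 and 28.2 FPKM in control, at 57.5, 80.9 and 82.2 in model and at 58.2, 51.7 and 64.0 in high dose, a log2 difference of 1.07 ± 0.196 (SE).

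Of the 36 gene lists, general macrophage genes held the most of the 210. Of 18 tested genes of the general macrophage list, 5 had no overlap and all 5 were higher (Cd68, Fcgr1, Mpeg1, Ctss and Cd5l), and of 19 foam and lipid-associated macrophage genes 3 were (Gpnmb, Mmp12 and Atp6v0d2). The share of all tested genes higher without overlap was 1.01%. The median log2 difference was 1.78 in the general list, with 17 of 18 members higher, and 1.04 in the foam cell list, with 16 of 19 higher, against -0.02 over all genes. Limma called 0 members of either list, and 13 and 7 had an unadjusted p under 0.05. In bulk tissue, more cells of a type and more RNA per cell cannot be told apart.

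Gpnmb, a glycoprotein of lipid-laden macrophages, was among the clearest of the 210. It stood at 6.34, 5.53 and 3.24 FPKM in control, at 1269, 76.6 and 114 in model, and at 25.6, 46.5 and 253 in high dose. Model 1 and high dose 3 were the highest and high dose 1 the lowest of the ApoE-/- libraries, still 4 times the highest control. The log2 difference was 4.40 ± 0.957 (SE). Mmp12, the macrophage elastase, stood at 0.693, 0.646 and 0.286 FPKM in control, at 250.5, 19.5 and 17.7 in model and at 3.23, 6.71 and 52.1 in high dose, a difference of 3.94 ± 0.982. Cd5l, a secreted protein that protects macrophages from cell death, had the highest difference of the 210, 4.76 ± 1.13, with 0, 0.784 and 0.378 FPKM in control and 374, 105, 18.3, 11.1, 1.90 and 86.7 in model 1 to 3 and high dose 1 to 3.

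Several of the genes encode lysosomal proteins, although 1 of 18 tested genes of the lysosome and autophagy list was among the 210 (1.63% of all tested genes were). Cd68, which encodes a lysosomal membrane protein, stood at 11.9, 16.2 and 8.39 FPKM in control, at 396, 67.5 and 64.2 in model and at 19.0, 34.7 and 144 in high dose. Ctss, the protease cathepsin S, stood at 19.4, 47.6 and 13.8, at 1265, 218 and 180, and at 65.9, 76.3 and 633. Atp6v0d2, a subunit of the proton pump that acidifies lysosomes in macrophages and osteoclasts, stood at 0.122 to 0.907 in control and 1.25 to 113 in ApoE-/-. Outside the lists, chosen after their values were seen, Tcirg1, another pump subunit, stood at 15.1 to 27.8 and 29.8 to 95.9, and the asparaginyl protease gene Lgmn at 28.3 to 39.4 and 40.3 to 288. Tfe3, a transcription factor that switches on lysosome genes, stood at 12.0 to 14.9 and 15.9 to 23.9. The gene of the lysosome list was Gla, the alpha-galactosidase that degrades glycolipids, with 1.42, 2.63 and 1.93 FPKM in control and 23.4, 4.17, 2.99, 4.08, 2.82 and 8.10 in model 1 to 3 and high dose 1 to 3.

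The lists as a whole can be read library by library. The mean of the general macrophage list on the log2(FPKM + 1) scale was 3.16, 3.72 and 2.75 in control, 6.07, 5.43 and 4.66 in model and 3.64, 3.92 and 5.56 in high dose. High dose 1 thus lay below control 2, and the groups overlapped for the list as a whole. The foam cell list had 5.24, 5.53 and 5.22 in control, 8.33, 6.57 and 6.74 in model and 5.81, 5.71 and 7.38 in high dose, without overlap. This mean includes Gpnmb, Mmp12 and Atp6v0d2, which the rule chose for such a separation, so it carries no test. In the nearest libraries, high dose 2 and control 2, Gpnmb stood at 46.5 and 5.53 FPKM and Mmp12 at 6.71 and 0.646. A list mean without the 3 genes was not taken. Without high dose 1, 11 general macrophage genes had no overlap, and without control 2, 10 did, while leaving out any other library gave 5 or 6. Foam cell genes without overlap numbered 5 without control 2, control 3 or high dose 2. In the 4 libraries that held heart muscle, control 1 and 2 against high dose 2 and 3, 11 of 18 general macrophage and 8 of 19 foam cell genes were higher without overlap, against 13.1% of all genes. The list genes among the 210, 5 and 3, are in these counts by the rule, so the counts carry no test. In each list 1 gene was lower, and over all genes 1694 were higher and 3050 lower in these 4 libraries. Trem2, the lipid receptor of foamy macrophages, was not among the 210: the controls held 11.7, 9.90 and 1.54 FPKM, high dose 1 held 3.96, and values lay between 11.4 and 160 in the other 5 ApoE-/- libraries.

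**Figure D4:**
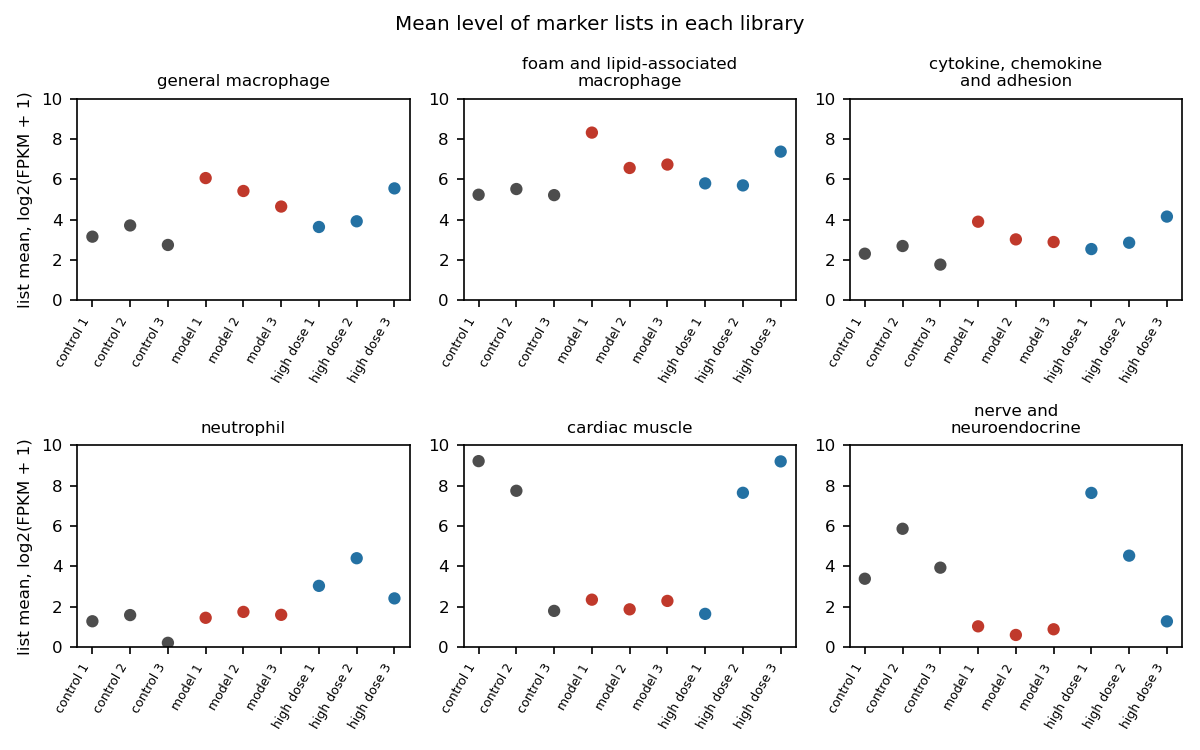
Mean log2(FPKM + 1) of 6 marker lists (vertical axes, all from 0 to 10) in each of the 9 libraries. The foam cell list separates the 6 ApoE-/- libraries, at 5.71 to 8.33, from control, at 5.22 to 5.53, while heart muscle is high in 2 control and 2 high dose libraries.

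Some receptor genes outside the lists are given as single genes, chosen from the 210 after their values were seen. The C-type lectin receptor genes Clec4n, Clec4d and Clec4e, which lie in a run of 4 of the 210 genes on chromosome 6 between 122577792 and 123281789 with Apobec1, were 3 of them. Clec4e, the receptor for mycobacterial cord factor and for dead cells, stood at 0.172, 0.0211 and 0.0193 FPKM in control and at 3.70, 6.11, 1.39, 0.876, 0.727 and 3.09 in model 1 to 3 and high dose 1 to 3. Clec7a, the beta-glucan receptor, stood at 0.574 to 4.21 in control and 4.39 to 152 in ApoE-/-, and the phagocytosis checkpoint gene Sirpa at 10.1 to 19.6 and 20.7 to 120. These families have close paralogs, between which reads can be split.

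In the cytokine, chemokine and adhesion list, 3 of 24 tested genes had no overlap, all of them chemokines and all higher: Cxcl10, Ccl8 and Ccl6. Over all tested genes 1.01% were higher without overlap. The mean of the list overlapped between the groups, at 2.70 in control 2 and 2.55 in high dose 1. The median log2 difference of the list was 1.00, with 23 of 24 members higher. Limma called 0 members, and 7 had an unadjusted p under 0.05. Cxcl10, which attracts T cells and is induced by interferon, stood at 2.04, 2.06 and 1.19 FPKM in control, at 5.12, 2.66 and 2.66 in model and at 16.4, 10.6 and 10.9 in high dose. Each high dose library lay above each model library, the only list member of the 210 with that order, and the log2 difference of high dose from model was 1.63 ± 0.291 (SE), limma adjusted p = 0.159. Its pooled difference from control was 1.48 ± 0.252. Cxcl10 lies within Art3 in the annotation, and reads of overlapping genes cannot be told apart where the strand of counting is not given. Ccl8, a monocyte attractant, stood at 2.11 to 3.17 FPKM in control and at 32.3, 12.4, 30.6, 4.32, 15.1 and 42.8 in model 1 to 3 and high dose 1 to 3, and Ccl6 at 25.7 to 32.0 and 34.7 to 222. Without control 2, 9 genes of the list had no overlap, without high dose 1, 6, and without control 1 or model 2, 5.

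Interferon response genes showed 1 gene without overlap among 18 tested, Irf7, the factor that amplifies type I interferon, at 10.4, 18.3 and 7.08 FPKM in control and at 22.4, 30.3, 20.1, 19.05, 27.3 and 30.0 in model 1 to 3 and high dose 1 to 3. Here model and high dose covered the same range, and the difference of high dose from model was 0.06 ± 0.341 (SE). For comparison, 1.63% of all tested genes had no overlap. All 18 tested members had a positive pooled difference, with a median of 0.58, and 6 had an unadjusted p under 0.05. Chosen after their values were seen, Eif2ak2, the RNA-activated kinase, stood at 3.47 to 6.12 and 6.43 to 11.9, and Rtp4 at 4.86 to 7.33 and 8.15 to 20.6, and both overlap another annotated gene.

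Promoters of 3 of the genes are shown because the letters of a factor known to act on each occur in them; they are the 250 bases before the RefSeq start (GRCm38.p6), written along the gene, with the matched letters in capitals. Cxcl10 (chr5:92348890-92349139, minus strand) holds an interferon response element (GAAA, any 2 bases, GAAA) from 213 to 204 bases before the start and an NF-kappaB element (GGGA, any 3 bases, TCC) from 159 to 150. Gla (chrX:134601006-134601255, minus strand) holds the palindrome TCACGTGA, bound by the MiT/TFE factors to which Tfe3 belongs, at 228 to 221 and again at 195 to 188. Nfil3 (chr13:52981040-52981289, minus strand), described below, is shown before the start that the promoter table lists, which lies inside the gene's annotated span of 52967209 to 52982878; it holds TAGGTCA, the element shared by ROR activators and REV-ERB repressors, on the opposite strand from 12 to 6 bases before the start.
Cxcl10: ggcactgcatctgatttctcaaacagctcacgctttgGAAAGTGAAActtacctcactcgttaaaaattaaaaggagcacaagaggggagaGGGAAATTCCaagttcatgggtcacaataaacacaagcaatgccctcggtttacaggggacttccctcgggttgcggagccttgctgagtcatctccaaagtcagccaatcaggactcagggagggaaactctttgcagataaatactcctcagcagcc
Gla: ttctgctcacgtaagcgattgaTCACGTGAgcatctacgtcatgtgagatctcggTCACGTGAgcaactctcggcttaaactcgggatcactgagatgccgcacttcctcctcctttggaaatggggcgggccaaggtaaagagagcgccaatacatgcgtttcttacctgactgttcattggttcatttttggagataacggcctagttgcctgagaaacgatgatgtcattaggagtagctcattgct
Nfil3: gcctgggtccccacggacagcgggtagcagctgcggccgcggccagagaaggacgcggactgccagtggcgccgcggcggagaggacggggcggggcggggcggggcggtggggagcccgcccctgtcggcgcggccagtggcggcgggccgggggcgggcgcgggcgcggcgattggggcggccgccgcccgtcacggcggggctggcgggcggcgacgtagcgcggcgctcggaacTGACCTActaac

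All 4 motifs were searched on both strands in the same window, and no matches of different motifs overlapped in these 3 sequences. Promoters were found for 10229 of the tested genes and 168 of the 210. The interferon element occurred in 2.69% of all and in 4 of the 168 (2.38%), the NF-kappaB element in 4.43% and in 11 (6.55%), TCACGTGA in 1.51% and in 1 (0.595%), and TAGGTCA in 1.71% and in 2 (1.19%). The shares of the 168 lay near those of all promoters, and a match is a run of letters, not a binding event.

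Cholesterol efflux was represented by Abcg1, the transporter that passes cholesterol to high-density lipoprotein, the 1 gene without overlap among 17 tested in its list. It stood at 4.01, 6.28 and 6.12 FPKM in control, at 60.1, 14.0 and 19.5 in model and at 18.2, 12.48 and 23.9 in high dose, with a log2 difference of 1.80 ± 0.426 (SE). The lowest ApoE-/- value, high dose 2, was nearly 2 times the highest control. Abca1, the transporter that loads apolipoprotein A-I, missed the rule through 1 library: control stood at 12.1, 13.5 and 21.3, high dose 2 at 19.4, and the other 5 ApoE-/- libraries between 35.5 and 78.1. The median difference of the list was 0.39, with 14 of 17 members higher, and 1.63% of all tested genes had no overlap. Of the cholesterol synthesis and uptake list 0 of 22 genes were among the 210, with a median of -0.03. Lists of fatty acid and triglyceride synthesis (0 of 18), fatty acid oxidation (0 of 19) and lipid droplet coat and lipolysis (0 of 13) had no gene without overlap either, at medians of 0.88, -0.63 and -0.33. In fatty acid oxidation 18 of 19 genes had a negative difference, and of the heart muscle genes 16 of 16 did. The mean of the fatty acid oxidation list was highest in control 3, at 7.30, and lowest in high dose 2, at 4.92. The heart muscle mean was 1.78 and 7.65 in these 2 libraries, and the brown adipocyte mean 8.06 and 5.74. The part of either tissue in the fatty acid oxidation values was not tested.

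Of 22 tested antioxidant and NRF2 target genes, 3 had no overlap, Hmox1, Txn1 and Blvrb, and all 3 were higher, as were 1.01% of all tested genes. The list's median difference was 0.06, with 12 members higher and 10 lower, limma called 0, and 4 had an unadjusted p under 0.05. Hmox1, the enzyme that opens haem, stood at 19.2, 23.4 and 19.4 FPKM in control, at 99.1, 41.1 and 26.8 in model and at 29.0, 43.2 and 72.9 in high dose, a log2 difference of 1.14 ± 0.416 (SE). Model 1 and high dose 3, the highest for Hmox1, were also the highest for Gpnmb and Cd68. Txn1, thioredoxin, was even across the ApoE-/- libraries, with 82.5, 157 and 95.4 FPKM in control and 238, 167, 176, 191, 189 and 189 in model 1 to 3 and high dose 1 to 3. Without control 3, 6 genes of the list had no overlap. Of 10 tested oxidant source genes 0 were among the 210, although 9 had a positive difference (median 1.08): Cybb, the phagocyte oxidase, stood at 1.31 to 4.64 in control and 4.38 to 31.7 in ApoE-/-, with high dose 2 inside the control range.

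Clock genes without overlap numbered 3 of 19, against 1.63% of all tested genes: Nfil3 and Arntl were higher and Hlf lower. Clock activators, of which Arntl encodes BMAL1, drive repressors that feed back on them, and Nfil3 and Hlf encode a repressor and an activator that compete for the same sites in output genes. Nfil3 stood at 1.95, 2.94 and 3.05 FPKM in control, at 6.87, 8.47 and 9.35 in model and at 5.24, 3.79 and 5.33 in high dose, a pooled difference of 1.01 ± 0.197 (SE). High dose lay wholly between control and model, and its difference from model was -0.68 ± 0.227, limma adjusted p = 0.309. Arntl stood at 2.44, 2.85 and 2.18 in control and between 3.36 and 5.34 in ApoE-/-. Hlf stood at 12.0, 6.73 and 7.82 in control and at 2.91, 4.14, 5.19, 3.41, 5.01 and 5.51 in model 1 to 3 and high dose 1 to 3. Arntl2, a relative of Arntl named after its values were seen, stood at 1.22 to 1.56 and 2.13 to 3.20.

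Nr1d1 and Dbp, clock genes outside the 210 chosen after their values were seen, were lowest in the 3 model libraries. Nr1d1, which encodes REV-ERB alpha, stood at 130, 126 and 86.7 FPKM in control, at 44.6, 36.6 and 41.5 in model and at 112, 134 and 101 in high dose, and Dbp, an output activator, at 27.4 to 52.2, 5.57 to 19.1 and 48.7 to 81.6. The differences of high dose from model were 1.47 ± 0.234 and 2.77 ± 0.455 (SE), both at limma adjusted p = 0.159. Per2, a clock repressor, did not show this, at 6.84 to 14.4 FPKM in control, 8.96 to 13.5 in model and 11.2 to 15.0 in high dose. Npas2, a partner of BMAL1, was instead higher in model than in control, at 2.24 to 3.66 and 0.98 to 1.77. High dose, at 1.64 to 2.57, overlapped both groups for Npas2. The list median over the pooled comparison was 0.00, with 9 members higher and 10 lower. The hour at which tissue was taken is not given in the labels.

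Among 8 tested neutrophil genes 2 had no overlap, Csf3r and Mmp8, against 1.63% of all tested genes. Csf3r, the receptor for granulocyte colony-stimulating factor, stood at 0.923, 1.47 and 0.399 FPKM in control and at 7.28, 8.39, 2.57, 2.75, 3.43 and 9.67 in model 1 to 3 and high dose 1 to 3. The list mean was 0.20 to 1.58 in control, 1.44 to 1.73 in model and 2.41 to 4.40 in high dose, with all 8 tested genes higher in the pooled comparison (median 1.79) and 0 called. Control 3 had the lowest mean, and model 1 lay below control 2. In the remaining lists, matrix metalloproteinases held Mmp12 as 1 of 12, and contractile smooth muscle (0 of 15), modulated smooth muscle and chondrogenic genes (0 of 11), fibroblast and collagen (0 of 16), elastic fibre and matricellular (0 of 15), endothelial (0 of 15), T and NK cell (0 of 8), B cell (0 of 9), cell cycle (0 of 16) and erythroid genes (0 of 9) held none of the 210. At the share of 1.63% over all tested genes, a count of 0 in lists this short says little. In all, 22 of the 513 tested list genes and 188 other genes were among the 210.

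Other higher genes by the order of p-values were spread over functions. Sorcs2, a sorting receptor for neurotrophins, stood at 1.29, 1.49 and 1.02 FPKM in control, at 2.37, 4.06 and 4.15 in model and at 5.59, 9.80 and 4.27 in high dose. Ampd2, which deaminates AMP, stood at 6.70, 11.1 and 7.00, at 15.6, 21.2 and 17.1, and at 13.8, 13.5 and 13.3. High dose lay above model for Sorcs2 and below it for Ampd2, and each gene's annotated span overlaps another gene (Psapl1 and Gm12500). Cdkn3, a phosphatase of cyclin-dependent kinases, was at 0 to 1.04 in control and 1.87 to 4.65 in ApoE-/-, and Mfsd7b, a haem exporter, at 4.10 to 6.65 and 8.97 to 14.2.

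The lower genes by the order of p-values were also of many functions. Ripply3, a transcriptional repressor of pharyngeal development, stood at 4.69, 8.75 and 6.65 FPKM in control and at 2.22, 3.16, 3.18, 2.31, 1.90 and 2.93 in model 1 to 3 and high dose 1 to 3. Cideb, a lipid droplet and very-low-density lipoprotein factor of liver, stood at 6.67, 3.36 and 5.96 in control and 0.801 to 2.38 in ApoE-/-; it overlaps Nop9 and Ltb4r2 in the annotation. Mterf2, a mitochondrial transcription factor, had even controls, at 10.2, 10.2 and 11.1, and 2.03 to 7.56 in ApoE-/-, with high dose 1 the highest. Lect1, the chondromodulin gene of cartilage and heart valves, stood at 1.09 to 2.94 and 0 to 0.869, and Lamb3, a laminin chain of epithelial basement membrane, at 3.41 to 7.35 and 0.232 to 3.39, with high dose 2 just under the lowest control.

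Aldh1a3, which makes retinoic acid, stood at 3.84, 6.18 and 3.53 FPKM in control, at 2.55, 2.05 and 3.19 in model and at 1.17, 1.62 and 1.09 in high dose. High dose was the lowest group without overlap, at a difference from model of -0.64 ± 0.256 (SE), limma adjusted p = 0.352. Zfp784, a zinc finger gene on chromosome 7, stood at 4.02 to 4.52 in control and 1.34 to 3.05 in ApoE-/-, and Thnsl2 at 5.57 to 7.73 and 3.52 to 4.31. Alb and Gc, which encode plasma proteins made in liver, are given as single genes chosen after their values were seen. Alb, albumin, stood at 20.5, 287 and 13.2 FPKM in control and at 0.551, 2.27, 10.02, 12.6, 0.268 and 1.27 in model 1 to 3 and high dose 1 to 3, and Gc, the vitamin D binding protein, at 1.83 to 35.4 and 0 to 1.29. Control 2 was the highest and control 3 the lowest of the controls for both, and high dose 1 was the highest of the ApoE-/- libraries.

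Over all 12895 tested genes, the 3 high dose libraries did not overlap the 3 model libraries in 22.6%, with high dose above in 11.7% and below in 10.9%. Among the 130 higher genes they overlapped in 115, high dose lay wholly below model in 8 and wholly above it in 7, and among the 80 lower genes they overlapped in 72, with high dose wholly below in 7 and above in 1. The rule leaves out genes in which high dose returned to control values. These counts are thus shaped in part by the rule and cannot be weighed against the 22.6%. The median difference of high dose from model was -0.11 in the higher and -0.08 in the lower genes, against 0.00 over all genes tested. Limma called 0 of the 210 for that contrast, and 9 had an unadjusted p under 0.05, Cxcl10, Nfil3 and Aldh1a3 among them. A p that misses the threshold does not show that the groups were alike, and for Gpnmb the difference was -1.72 ± 1.11 (SE). By library, model 1 was the highest of the 6 in 51 of the 130 higher genes, followed by high dose 3 in 23 and high dose 2 in 21, while high dose 1 was the lowest in 37 and high dose 2 in 30. Control 2 was the control nearest to the ApoE-/- libraries in 79 of these 130 genes, and control 3 in 40 of the 80 lower ones. Control 2 had the lowest depth and the most genes at 1 FPKM or more, 13191, and control 3 the fewest, 11314; their part in these counts was not tested.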

How the data were processed

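Messenger RNA of mouse aortic arch was sequenced in 9 libraries made with an NEBNext Ultra kit, per the labels' protocols. The authors deposited 1 table of FPKM values for 21989 genes; per the submitters' processing notes the builds were GRCm38.p5 and mm10, with aligner, counter and use of strand not given in the sources used here. Columns were matched to samples by name. Because FPKM is scaled to each library's total and keeps no counts, neither a count test nor a counting interval was used. Of the gene IDs, 21822 (99.2%) were found in RefSeq on GRCm38.p6, which gave positions and promoter sequences. Date-like names numbered 27.

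Genes with at least 1 FPKM in at least 3 libraries entered limma 3.58.1 (R 4.3.3) as log2(FPKM + 1), which understates the change of low genes: 1 mean per group over all 9 libraries, the average of model and high dose minus control, empirical Bayes with a trend, two-sided, Benjamini-Hochberg adjustment over 12895 genes, at 0.05. Differences are log2 ± SE. The procedure was tested on simulated data. Named genes were Apoe, for each direction the 10 genes without overlap that had the smallest p and averaged 2 FPKM or more where higher, every member of 36 gene lists without overlap, those within 5 Mb of Apoe, and a few genes described whatever their values, of which 1 is not reported here. The comparison and the lists were chosen with earlier results of these data known. Figures used matplotlib 3.10.9.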

Additional observations from a re-analysis of the deposited data

Results flagged for a closer look

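Of 47 named genes checked over the 6 ApoE-/- libraries on the log2(FPKM + 1) scale, 1 had a library far from the rest. Apoe in high dose 2 stood at 93.7 FPKM, with the next library at 33.4, and this gap was 0.649 of the range of the 6 libraries. Chance alone sets about 1 in 20 groups apart in this way.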

How the results depend on the processing

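The settings varied were the pseudocount (0.1), the filter (none, or 5 FPKM on average), the scaling (median-ratio or quantile), haemoglobin genes left out, robust empirical Bayes, array weights, a 2-group fit, the replicate number as a block, the cardiac list mean as a covariate, each library left out, and the 4 libraries with heart muscle alone. The pooled comparison called 0 genes in all of them except array weights (1, Apoe) and without control 3 (1, Lgals4), so that leaving out a library gave 0 to 1. High dose against model, which the 2-group fit and the 4 libraries cannot give, called 6 genes with array weights and, leaving out a library, 0 to 46, the 46 without high dose 3. Genes without overlap numbered 131 with the filter of 5 FPKM and 250 to 1223 with a library left out, and 201 with haemoglobin left out (144 higher, 57 lower). The direction of genes chosen for separated groups is fixed when a library is left out, so their signs there say nothing of stability. Deviations of same-numbered libraries correlated between -0.52 and 0.31, and not every library correlated best with its own number. These correlations showed no pairing by number but cannot settle whether the samples were paired. With the replicate block 0 genes passed in the pooled comparison, and 398 had an unadjusted p under 0.05 (509 without it).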
